A study of Mus musculus with 4 samples.

Results

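Binding of NR1D1, the clock repressor also called REV-ERB alpha, was mapped at the genes of SMAD proteins and their inhibitors in primary vascular smooth muscle cells from the aorta of WT mice. The assay was CUT&Tag, in which an antibody brings a transposase to chromatin so that the DNA around the bound protein is released and sequenced. The cells received vasostatin-2, which is cut from the N-terminal part of chromogranin A, for 24 h, or phosphate-buffered saline (PBS) for the same time. All cells were WT and in the same labelled batch, and the dose, the animals' age and the number of animals are not given in the sources used here. There was 1 NR1D1 library per treatment, and those made with IgG were not analysed here. Spread between cultures was therefore not measured, and no difference between treatments was tested. All intervals below are 95% intervals that cover counting error only.

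The genes were chosen by name: the signal mediators Smad1, Smad2, Smad3, Smad4 and Smad5, the inhibitors Smad6, Smad7, Ski and Skil, and the target gene Ccn2, 10 of 21887 protein-coding genes. Every peak that overlapped the RefSeq span of such a gene or the 50 kb on each side was counted, which gave 14 of 8816 peaks in the vasostatin-2 list (Poisson interval 7.65 to 23.5) and 17 of 7377 in the PBS list (9.9 to 27.2). Peaks in both lists were small: the median summit of a whole list held 7 fragments with vasostatin-2 and 8 with PBS, and the lowest held 4. The background values of the peak caller put the depth of the vasostatin-2 library at 1.32 times that of the PBS library.

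SMAD proteins carry signals of the TGF-beta family into the nucleus. SMAD2 and SMAD3 are phosphorylated by TGF-beta and activin receptors, SMAD1 and SMAD5 by BMP receptors, and SMAD4 joins either pair. SMAD6 and SMAD7 act against receptors and receptor-activated SMADs, and both genes are themselves induced by the pathway as feedback. SKI and SnoN, the product of Skil, bind SMAD complexes and recruit corepressors, among them the NCoR complex that NR1D1 also uses. Ccn2 encodes connective tissue growth factor, a matricellular protein and a classic TGF-beta target. In smooth muscle this pathway is known for its role in contractile differentiation and matrix production.

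The sites with the most fragments lay just upstream of Smad6 and Ski and were found in both libraries. RefSeq places the Smad6 start at 64022059 on the minus strand of chromosome 9 and the Ski start at 155222535 on the minus strand of chromosome 4 (GRCm38.p6, the assembly of mm10). The 250 bases before these starts are shown because they lie between the gene and the shared peak. The nearest peak edge was 19 bp from the Smad6 stretch with vasostatin-2 and 117 bp with PBS. For Ski it was 536 bp with vasostatin-2 and 330 bp with PBS. The stretches of Smad1 and Smad3 are set beside them because neither gene had a peak within 3 kb of an end. Capitals mark CpG dinucleotides, each sequence is 5′ to 3′ on the gene's strand, and all come from RefSeq.
Smad6 (chr9:64022060-64022309, minus strand): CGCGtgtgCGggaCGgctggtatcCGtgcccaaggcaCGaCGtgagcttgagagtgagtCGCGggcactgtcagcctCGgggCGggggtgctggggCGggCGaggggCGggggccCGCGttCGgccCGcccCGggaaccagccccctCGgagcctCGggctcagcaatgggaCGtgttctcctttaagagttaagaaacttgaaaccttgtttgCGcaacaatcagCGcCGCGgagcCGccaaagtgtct
Ski (chr4:155222536-155222785, minus strand): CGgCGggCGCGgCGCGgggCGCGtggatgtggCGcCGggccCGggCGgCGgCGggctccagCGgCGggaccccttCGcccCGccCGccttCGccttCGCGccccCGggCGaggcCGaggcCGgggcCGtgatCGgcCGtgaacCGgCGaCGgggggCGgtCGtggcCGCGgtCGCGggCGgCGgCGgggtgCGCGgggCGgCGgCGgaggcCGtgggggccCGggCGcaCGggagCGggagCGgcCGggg
Smad1 (chr8:79399429-79399678, minus strand): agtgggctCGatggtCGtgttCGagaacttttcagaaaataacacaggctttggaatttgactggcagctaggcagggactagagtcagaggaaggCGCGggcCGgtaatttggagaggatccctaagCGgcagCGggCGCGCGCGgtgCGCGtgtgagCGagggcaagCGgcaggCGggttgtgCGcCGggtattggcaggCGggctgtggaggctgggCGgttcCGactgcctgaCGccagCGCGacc
Smad3 (chr9:63757995-63758244, minus strand): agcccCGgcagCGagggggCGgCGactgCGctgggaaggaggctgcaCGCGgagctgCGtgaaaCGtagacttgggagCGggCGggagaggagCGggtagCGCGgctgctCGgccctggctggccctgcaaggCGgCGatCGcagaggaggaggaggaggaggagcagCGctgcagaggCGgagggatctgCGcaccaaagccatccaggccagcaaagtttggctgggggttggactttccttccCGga

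All of these stretches were rich in CpG. They held 27 CpG at Smad6, 53 at Ski, 25 at Smad1 and 22 at Smad3, against a median of 6 over 32851 RefSeq promoters of the same length. At least as many CpG as Smad6 were present in 8.56% of those promoters, and at least as many as Ski in 0.0365%. The core element of nuclear receptors, AGGTCA, was absent on both strands from the 250 bases before every RefSeq start of Smad1, Smad3, Smad5, Smad6 and Ski, and 14.0% of all promoters held it. Its form TAGGTCA, contained in the first search, occurs in 2.23% of promoters and was absent as well. The direct repeat of the core element with a spacing of 2 bases (DR2) was likewise absent, and 0.00913% of promoters held it. No E-box, CACGTG, was found there, compared with 6.02% of all promoters. The SMAD element CAGACA was absent too, and 17.1% of all promoters held it. These letters describe the windows shown and not the peaks, whose own sequence was not read. Promoter sequences were matched for 5 of the 10 genes. The 250 bases before their RefSeq starts held 60.0 to 87.6% G and C, against a median of 52.4% over all promoters. The promoter shares above are not adjusted for this.

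Peaks were present around 8 of the 10 genes in the vasostatin-2 list and around 9 in the PBS list, and 8 genes had a peak in both. Of all protein-coding genes 50% had a vasostatin-2 peak within 50 kb, 49.2% a PBS peak, and 36.4% a peak of both lists. Among the 5857 genes with spans as long as those of the SMAD, Ski and Skil genes, 55.1% had a vasostatin-2 peak and 53.7% a PBS peak. Within 3 kb of a gene end, 5 of the 10 genes had a vasostatin-2 peak and 6 a PBS peak, against 13.8% and 18.1% of all protein-coding genes. The 5 were Smad5, Smad6, Ski, Skil and Ccn2, and the 6 were Smad2, Smad6, Smad7, Ski, Skil and Ccn2. Of the 5857 genes of like span, 961 had a vasostatin-2 peak within 3 kb of an end and 1248 a PBS peak. None of these comparisons is matched for CpG content.

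**Figure D1:**
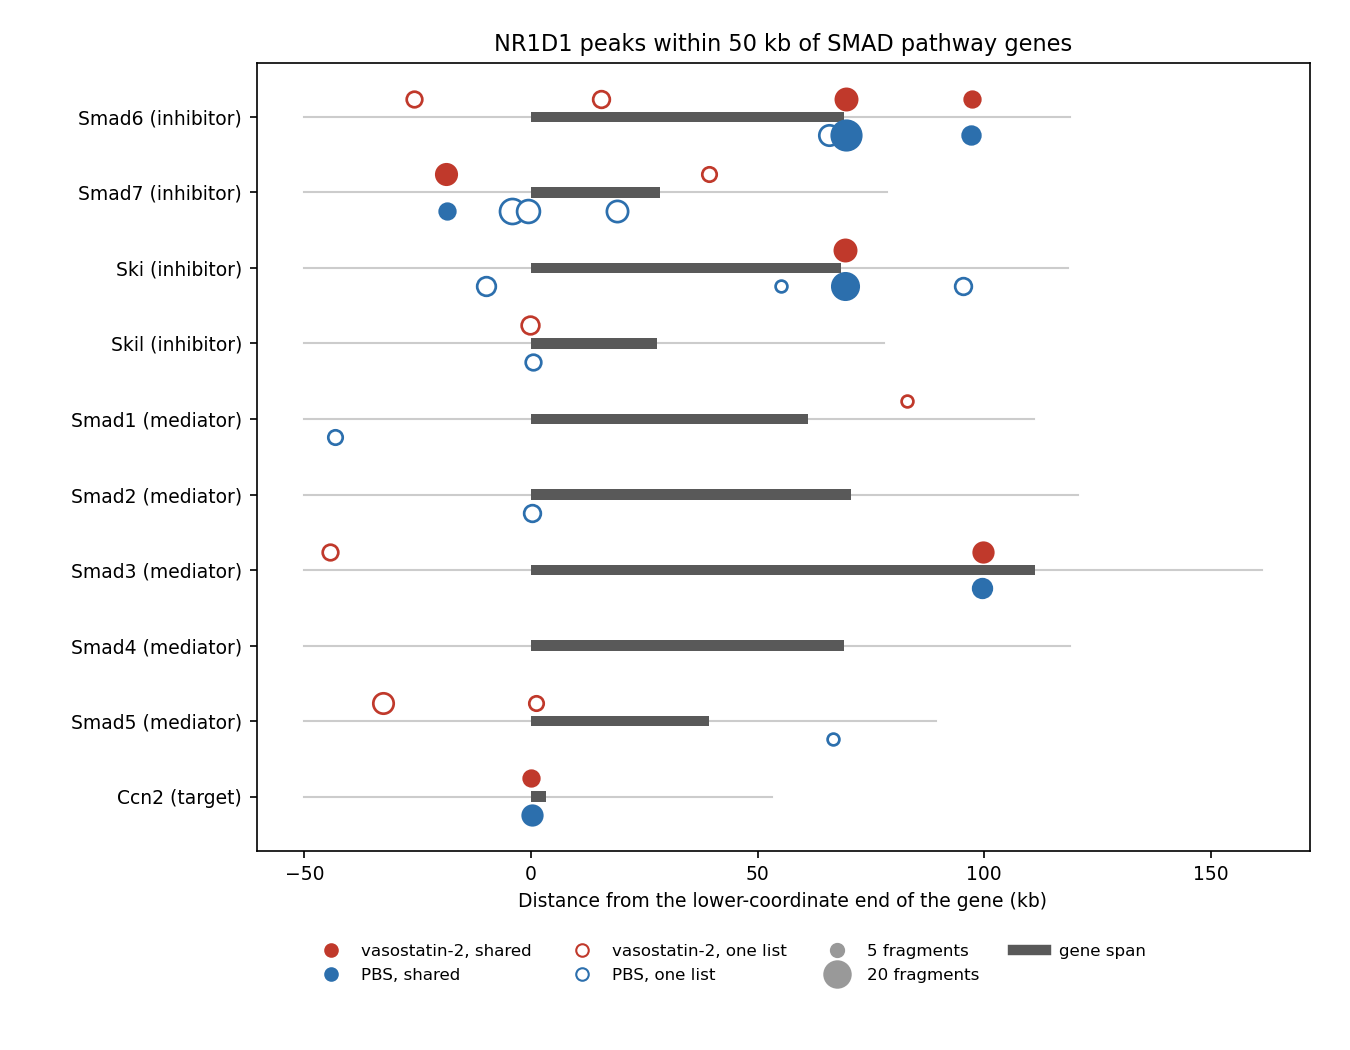
Position of every NR1D1 peak within 50 kb of the 10 genes, drawn as the distance of its summit from the lower-coordinate end of the gene (kb), with vasostatin-2 peaks above and PBS peaks below each gene span. The area of a circle follows its summit fragments, filled circles overlap a peak of the other list, and the largest circles stand beside the upper ends of Smad6 and Ski, where both lists have a peak.

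The windows of the inhibitors held more peaks per length than those of the mediators in both lists. With vasostatin-2 the 4 inhibitors had 8 peaks in 593.9 kb, or 1.35 per 100 kb (Poisson interval 0.582 to 2.65), and the 5 mediators had 5 peaks in 851.3 kb, or 0.587 per 100 kb (0.191 to 1.37). With PBS the inhibitors had 12 peaks, or 2.02 per 100 kb (1.04 to 3.53), and the mediators 4, or 0.47 per 100 kb (0.128 to 1.2). The density of inhibitors over mediators was thus 2.29-fold with vasostatin-2 (exact binomial interval 0.662 to 8.91) and 4.3-fold with PBS (1.3 to 18.3). The interval of the vasostatin-2 list includes equal densities. Neither interval covers the spread between genes, so neither is a test of inhibitors against mediators, and the 2 lists were not compared by them. Both intervals treat peaks as independent, although some lie within a few kb of each other. Windows of all protein-coding genes held 0.583 vasostatin-2 peaks and 0.591 PBS peaks per 100 kb, close to the mediators in both lists. The inhibitors' windows held 8 ends of other protein-coding genes, or 1.35 per 100 kb, and the mediators' 9, or 1.06 per 100 kb. Counting a peak only where the named gene was its nearest left densities of 1.35 for inhibitors and 0.352 for mediators with vasostatin-2, and of 1.68 and 0.235 with PBS.

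**Figure D2:**
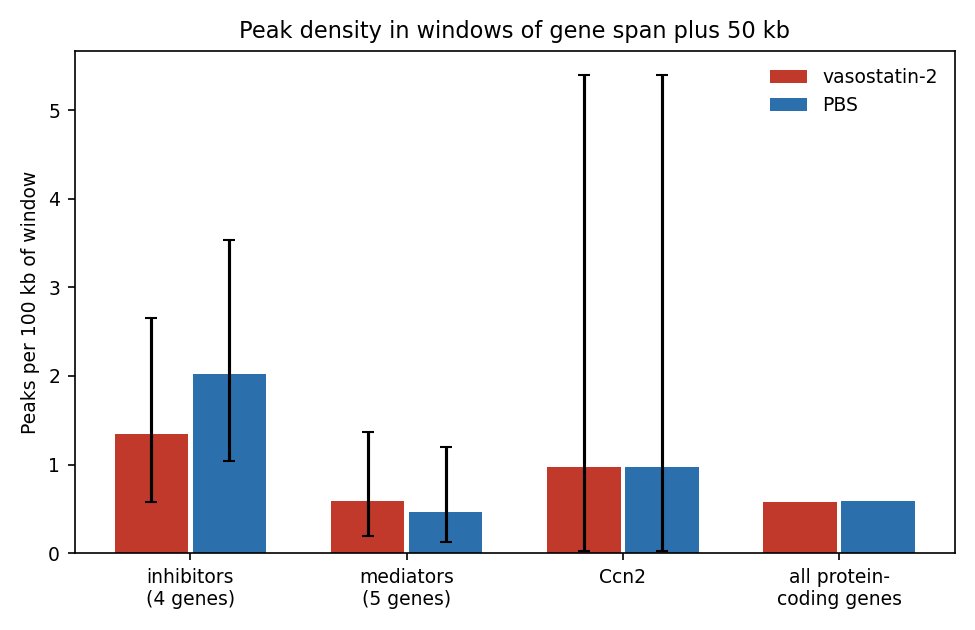
Peaks per 100 kb of gene span plus 50 kb on each side, for the inhibitors, the mediators, Ccn2 and all protein-coding genes, with vasostatin-2 bars left of PBS bars and exact 95% Poisson intervals for the named genes. The inhibitors stand at 1.35 and 2.02 and the mediators at 0.587 and 0.47, and the intervals of Ccn2, from 1 peak each, are too wide to place it.

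The density was not even among the inhibitors. Smad6 had 4 vasostatin-2 and 3 PBS peaks, Smad7 2 and 4, Ski 1 and 4, and Skil 1 and 1. At least 4 peaks, as at Smad6 with vasostatin-2 and at Smad7 and Ski with PBS, were seen at 3.30% of all protein-coding genes in the vasostatin-2 list and 3.78% in the PBS list. Among the mediators no gene had more than 2 peaks in a list. The inhibitors' summits held 6 to 13 fragments with vasostatin-2 (median 8.5) and 4 to 25 with PBS (median 11). The mediators' held 4 to 12 with vasostatin-2 (median 7) and 4 to 10 with PBS (median 7).

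Smad6 encodes the inhibitor best known for acting on BMP signals. Its strongest peak lay on chromosome 9 from 64022328 to 64022908 with vasostatin-2 and from 64022426 to 64022994 with PBS. Both lists placed the summit at the same base, 596 bp outside the gene span and at -622 bp from the RefSeq start. The summit held 13 fragments with vasostatin-2 and 25 with PBS. The authors' fold enrichment, which has 1 fragment added to summit and background and so understates the ratio at small counts, was 5.78 and the -log10 q 5.34 with vasostatin-2, against 7.19 and 12.3 with PBS. Per unit of depth the vasostatin-2 summit held 9.86 fragments, a log2 ratio to PBS of -1.34 (exact binomial interval -2.43 to -0.32), beside a median of -0.62 over all shared sites of the lists. Of the sites shared by both lists at these genes it was the only one whose interval did not include 0. That interval does include the median of all shared sites, so it does not set this site apart from them. It also rests on the depth ratio, and without depth scaling the log2 ratio was -0.94. The surroundings were lower as well: the 10 kb around this summit, summit included, held 78 fragments with vasostatin-2 and 133.5 with PBS, a depth-scaled log2 ratio of -1.17.

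Farther out Smad6 had a second shared site, 28407 bp from the gene end with vasostatin-2 and 28101 bp with PBS. It held 7 fragments with vasostatin-2 and 9 with PBS, a depth-scaled log2 ratio of -0.76 (-2.42 to 0.83). No other protein-coding gene reaches into this window, so all Smad6 peaks had Smad6 as their nearest gene. Peaks of 8 fragments inside the gene, 15434 bp from its lower end, and of 7 fragments 25723 bp outside that end were found with vasostatin-2 alone. A peak of 12 fragments 3212 bp downstream of the RefSeq start was found with PBS alone, on a background of 2.37 fragments, 7.64 times the floor of that library. Its 10 kb surroundings overlap those of the strongest Smad6 peak.

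Ski, whose product is a SMAD-binding corepressor, had a single vasostatin-2 peak, and that peak was shared. It lay on chromosome 4 from 155223321 to 155223882 with vasostatin-2 and from 155223115 to 155223434 with PBS, with summits 862 and 859 bp upstream of the RefSeq start. The summit held 13 fragments with vasostatin-2 and 20 with PBS. Fold enrichment was 6.95 with vasostatin-2, in the top 14.3% of that list, and 8.75 with PBS, in the top 7.58% of its own list. These were the highest folds of any SMAD or SKI peak in either list. The depth-scaled log2 ratio was -1.02 (-2.15 to 0.06), and the 10 kb around held 55.5 fragments with vasostatin-2 and 71.5 with PBS. The other PBS peaks of the window had 4, 8 and 10 fragments, and those of 8 and 10 lay in the neighbours Faap20 and Morn1.

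Smad7 encodes an inhibitor of TGF-beta and BMP receptors. With vasostatin-2 none of its 2 peaks was inside the gene or within 10 kb of it, and with PBS 3 of 4 were. The PBS peaks held 18 fragments 4181 bp outside the lower end, 15 fragments 610 bp outside that end, and 13 fragments inside the gene, 9574 bp from its upper end. The first and second of these stood on backgrounds of 2.36 and 2.52 fragments, 7.61 and 8.11 times the floor, and their 10 kb surroundings held 120.5 and 128.5 fragments. Those surroundings overlap and so count many of the same fragments. At the depth of the vasostatin-2 library the same signal would give 23.7, 19.8 and 17.1 fragments, and calls would need 12, 12 and 8. The lower interval bounds, scaled in the same way, were 14.1, 11.1 and 9.13, so those of the peaks with 18 and 13 fragments were above the number needed and that of the peak with 15 was below it. The peaks were chosen by their call in the PBS list, which can favour high counts, and the bounds make no allowance for that choice. The scaling is by depth alone, while all shared sites of the lists had a median depth-scaled log2 ratio of -0.62. Whether these peaks would still be called after such a shift was not tested.

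The shared Smad7 site lay 18789 bp outside the lower end with vasostatin-2 and 18603 bp with PBS. It held 12 fragments with vasostatin-2 and 7 with PBS, and was the only one of the shared sites with more depth-scaled fragments with vasostatin-2 (log2 ratio 0.38, -1.08 to 1.96). Its fold enrichment was 6.31 with vasostatin-2 and 4.44 with PBS. The interval includes no difference. A further vasostatin-2 peak of 6 fragments lay 10750 bp outside the upper end.

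At Skil both libraries had a peak near the lower-coordinate end, but the peaks did not overlap. The vasostatin-2 peak spanned that end, from 31094569 to 31095092 on chromosome 3, with 9 fragments. The PBS peak was inside the gene, from 31095579 to 31095854, with 7 fragments. A gap of 486 bp separated them and their summits were 729 bp apart. Fold enrichment was 5.28 with vasostatin-2 and 4.39 with PBS.

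At the mediators 1 site was shared, out of 5 vasostatin-2 and 4 PBS peaks. Smad3, the TGF-beta mediator that binds DNA directly, had it inside the gene, with summits 11498 bp downstream of the RefSeq start with vasostatin-2 and 11805 bp with PBS. It held 11 fragments with vasostatin-2 and 10 with PBS, with folds of 5.1 and 5.37. The depth-scaled log2 ratio was -0.26 (-1.64 to 1.13). A second vasostatin-2 peak in the Smad3 window, of 7 fragments, was inside the neighbouring gene Iqch.

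Smad5, a BMP mediator, had a vasostatin-2 peak of 6 fragments inside the gene, 479 bp downstream of the nearest of its 3 RefSeq starts, and no PBS peak there. The strongest mediator peak of either list was also from the vasostatin-2 list, with 12 fragments and a fold of 6.89, 32641 bp outside the lower end of Smad5. Its nearest gene was Tgfbi, a TGF-beta-induced matrix gene, 31010 bp away. The single PBS peak of this window, with 4 fragments, lay 3519 bp from Trpc7. Smad2 had a PBS peak of 8 fragments 235 bp inside its lower end and no vasostatin-2 peak. Smad1 had 1 small peak per list at different places, of 4 fragments with vasostatin-2 and 6 with PBS, and the PBS peak lay 116 bp from Mmaa. Smad4, the common partner of the other mediators, had no peak in its 169 kb window in either list, which at this depth does not show that signal was absent.

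Ccn2 had 1 peak per list, and they overlapped just inside its lower-coordinate end on chromosome 10. The peak ran from 24595443 to 24595893 with vasostatin-2 and from 24595462 to 24595784 with PBS. The summit held 7 fragments with vasostatin-2 and 11 with PBS, with folds of 4.48 and 6.06. The depth-scaled log2 ratio was -1.05 (-2.66 to 0.45).

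Over the 10 genes 6 sites were shared, 42.9% of the vasostatin-2 peaks (Wilson interval 21.4 to 67.4) and 35.3% of the PBS peaks (17.3 to 58.7). In the whole lists 30.0% of vasostatin-2 peaks and 35.6% of PBS peaks were shared, within those intervals. Requiring an overlap of 50% of both peaks left 3 shared sites (21.4% with vasostatin-2 and 17.6% with PBS), and summits within 200 bp left 4 (28.6% and 23.5%). At 5 of the 6 sites the vasostatin-2 summit held fewer fragments per unit of depth, and 83.9% of all 2626 shared sites did the same. The median log2 ratio was -0.89 over the 6 sites and -0.62 over all shared sites, or -0.66 over the 2047 with 7 to 25 PBS fragments. Their fragments together came to 63 with vasostatin-2 and 82 with PBS, a depth-scaled log2 ratio of -0.78 (-1.28 to -0.29). Summits were within 10 bp of each other at Smad6 and Ski, as at 15.5% of all shared sites. The median distance between summits was 167 bp over the 6 sites and 78 bp over all.

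**Figure D3:**
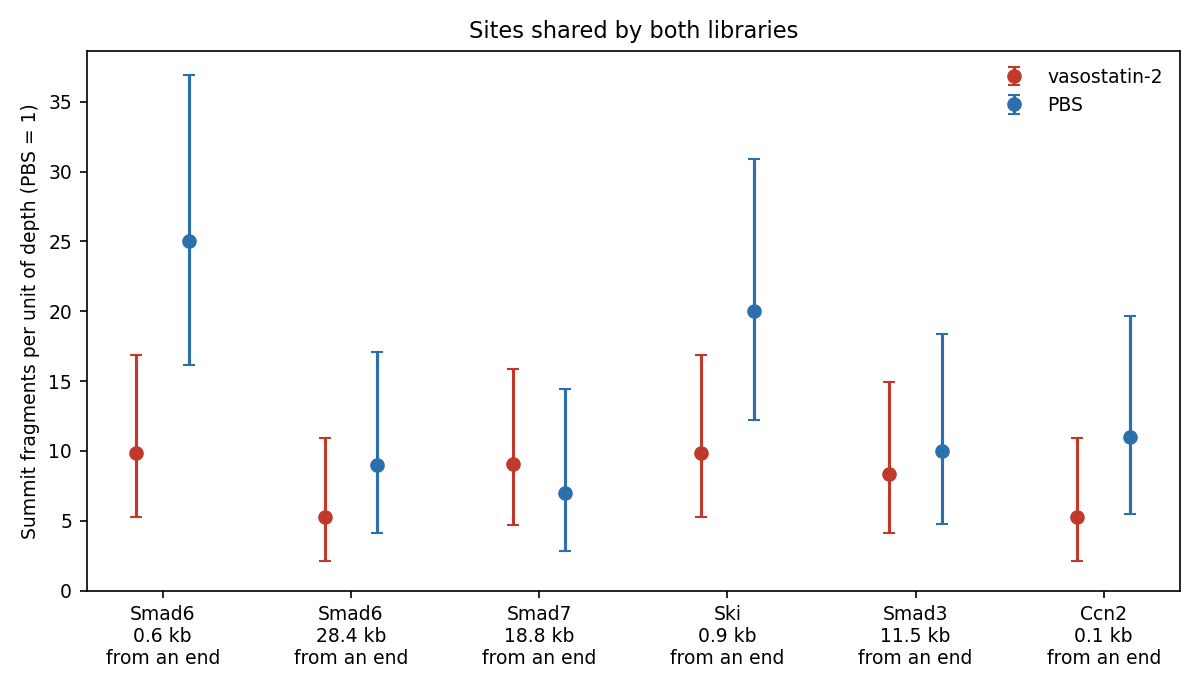
Summit fragments per unit of depth at the 6 shared sites, vasostatin-2 left of PBS, with exact 95% Poisson intervals (counting error only). The vasostatin-2 point is lower at all sites but that of Smad7, and the points lie farthest apart upstream of Smad6, at 9.86 and 25.

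Most peaks found in 1 list were too weak to place on either side of the calling threshold in the other library. Of the 8 vasostatin-2-only peaks, with 4 to 12 fragments, 0 had a lower interval bound that would still give a call at PBS depth. Of the 11 PBS-only peaks, with 4 to 18 fragments, 2 did at vasostatin-2 depth, both at Smad7. These bounds allow for depth alone. They make no allowance for the choice of each peak by its call in 1 list. Nor do they allow for the lower vasostatin-2 fragments at most shared sites (median log2 ratio -0.62). The shared peaks held 7 to 13 fragments with vasostatin-2 and 7 to 25 with PBS. Of the peaks in these windows 2 with vasostatin-2 and 4 with PBS were nearest to another protein-coding gene.

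**Figure D4:**
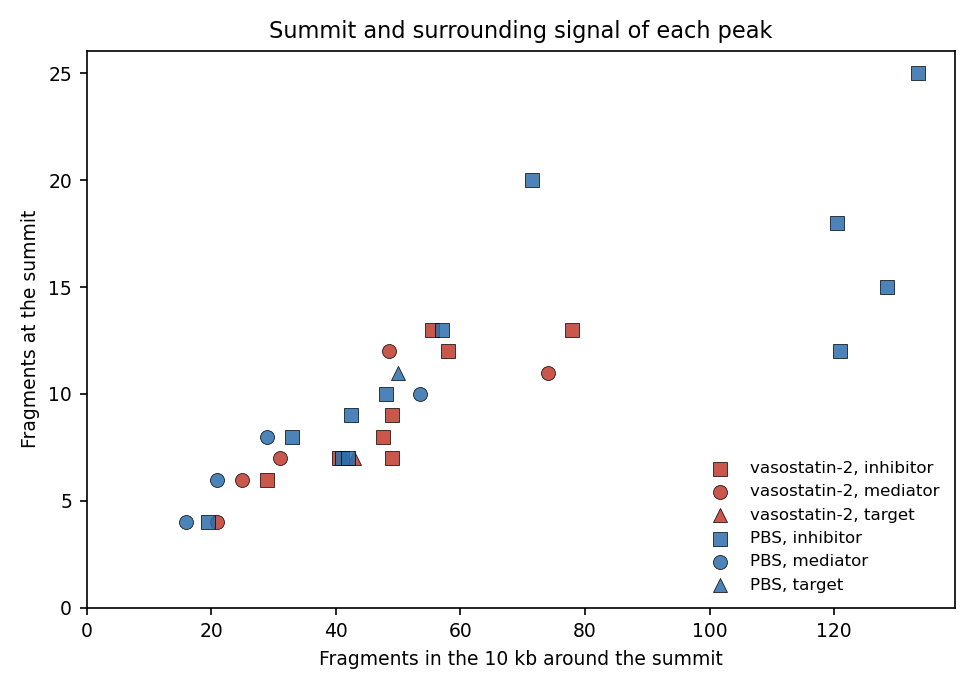
Fragments at the summit against fragments in the 10 kb around it for all peaks of these windows, coloured by library and shaped by the role of the gene. The 4 PBS peaks past 120 fragments in 10 kb are at Smad6 and Smad7, where their 10 kb windows overlap within each gene, and no vasostatin-2 peak lies beyond 78.

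Of 41 other genes of the pathway (ligands, receptors, regulators and targets) 9 had a vasostatin-2 peak within 3 kb of an end and 9 a PBS peak (22.0% in each list), and 6 had both; the shares over all protein-coding genes were 13.8% with vasostatin-2 and 18.1% with PBS. Of 10 ligands Tgfb3 had a vasostatin-2 peak of 5 fragments. Of 11 receptors, Bmpr2, Eng (endoglin) and Acvr2b had a peak in both lists, with 5, 14 and 9 fragments with vasostatin-2 and 7, 10 and 11 with PBS. All fragments in this paragraph are as recovered, without division by the depth ratio of 1.32. Of 10 regulators, the ubiquitin ligase gene Smurf1 had a peak with vasostatin-2 alone (6 fragments), and Smurf2, Nedd4l and the pseudoreceptor gene Bambi with PBS alone (7, 10 and 8). Of 10 target genes Id1, Id3 and Junb had one in both lists, and Id2 in the vasostatin-2 list. Id3, a BMP-induced inhibitor of helix-loop-helix factors, held 11 fragments with vasostatin-2 and 30 with PBS. Id1, its relative, held 12 with vasostatin-2 and 21 with PBS, and Junb, an AP-1 subunit, 18 with vasostatin-2 and 24 with PBS. Among 6 genes of corepressor complexes used by SKI or NR1D1, Sin3a held 25 fragments with vasostatin-2 and 41 with PBS and Hdac3 5 and 9, while Tbl1x had a PBS peak of 4. Sin3a had 2 such peaks in each list, and Junb and Acvr2b had 2 with PBS. For them the fragments given are those of 1 peak per list.

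Among marker genes of cell types, a peak within 3 kb of an end was found at 0 and 1 of 6 smooth muscle genes with vasostatin-2 and PBS (Smtn, 13 fragments), 0 and 0 of 4 endothelial genes, 1 and 0 of 4 macrophage genes (Cd68, 11 fragments) and 1 and 0 of 4 fibroblast genes (Mfap5, 4 fragments). Smtn had 2 such PBS peaks, and the fragments given are those of 1 of them. Over all protein-coding genes the shares were 13.8% with vasostatin-2 and 18.1% with PBS. NR1D1 peaks do not measure expression, so the labelled cell type was not checked by these counts.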

How the data were processed

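CUT&Tag peak lists of 2 NR1D1 libraries, 1 after vasostatin-2 and 1 after PBS, were analysed. The submitters' processing notes name Trimmomatic 0.39, BWA 0.7.17, MACS2 2.2.7.1 and build mm10 but no role or option for any of them. Neither list pools libraries, per the labels. The deposited files have no header and follow the 10-column order of MACS2. The deposited fold enrichment is a ratio of the summit to its local background after 1 fragment is added to each, as the recovery below shows, and significance at the summit is deposited as -log10 of the p-value and of the q-value. The deposited score is 10 times the -log10 q, rounded down, and was not used. These values describe peaks within their own list. Positions are on mm10, counted from 1.

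Fragments at the summit and the background were recovered from fold and -log10 p through the caller's Poisson formula. A solution within 0.0005 was found for 100% of peaks, and 4 PBS peaks had a second one nearly as close. Above its floor (0.381 fragments with vasostatin-2, 0.31 with PBS) the background moved in whole steps for 100% of values below 1.2 fragments (within 0.05 of a step). A step was read as 1 fragment end in an assumed window of 10 kb, which gave fragment lengths of 183 bp (vasostatin-2) and 196 bp (PBS) and, with the floor, the depth ratio of 1.32. The 10 kb window held fewer fragments than the summit at 0.0% of peaks in both lists. The background never falls below its floor, so summits of few fragments, as at most peaks, pass this check whichever library gave it. The check could fail only at higher summits. On that limited basis the background was read as that of the NR1D1 library itself. Whether IgG libraries entered the calling is not given in the sources used here. Total fragments are not given in the sources used here, and reads without molecular identifiers are not independent molecules.

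Gene spans were taken from RefSeq genes on GRCm38.p6, a table that gives no strand; starts and strands came from RefSeq promoter sequences for 5 of the 10 genes. Peaks were shared when they overlapped by at least 1 bp; a shared pair is the overlapping pair of closest summits. Needed fragments in the other library are the fewest that reach its lowest deposited -log10 p, with fragments and background scaled by 1.32. Intervals are exact Poisson, Wilson and exact conditional binomial. The steps were tested on simulated data and against bedtools 2.31.1 with Python 3.11.15, numpy 2.4.6, pandas 2.3.3 and scipy 1.17.1. The genes, lists and alternatives were chosen with earlier results of these data known. By the rule for named genes all 10 members are named, pathway and marker genes with a peak within 3 kb of an end, other genes as the nearest to a peak, every shared peak, and the peak of highest fold per gene and list. The other peaks described were chosen after their values were seen.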

Additional observations from a re-analysis of the deposited data

How the results depend on the processing

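No paired analysis was possible because there is 1 library per treatment and no result comes from a test. Of 50 recomputed values 38 stayed within the interval of the reported value or within 1.5 times the reported count, and 12 moved. Only the log2 ratios among them could change sign, and they did not. Shared sites numbered 3 with an overlap of 50% of both peaks and 4 with summits within 200 bp, against 6, shares still within the wide intervals of the main ones. Inhibitors had a higher peak density than mediators under every setting tried, in both lists. These settings keep parts of the same peaks, so they are not independent of each other, and some rest on very few peaks. With windows of 10 kb the vasostatin-2 list held 7 peaks, and with 3 kb the lists held 7 (vasostatin-2) and 10 (PBS). With q under 1e-05 they held 4 and 5. Densities per 100 kb were then 0.505 and 0.674 for inhibitors (3 and 4 peaks) and 0.117 and 0.0 for mediators (1 and 0 peaks). With at least 8 fragments the vasostatin-2 list held 7, and after 1 random thinning to PBS depth 5. Densities per 100 kb after thinning were 0.505 for inhibitors (3 peaks) and 0.235 for mediators (2 peaks). A stricter rule or smaller window holds fewer peaks by construction, and no further cause was tested. Without depth scaling the log2 ratio over the shared sites was -0.38 (-0.88 to 0.11), an interval that includes 0, and vasostatin-2 was lower at 4 of 6 sites. The step of the background alone gives a fragment length and no depth, so that alternative was not run. Summits of 4 to 25 fragments limit every value here.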
